A study of Rattus norvegicus with 4 samples.

Results

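The Notch ligands, receptors and target genes were examined in cultures of rat astrocytes and mouse neurons. The group held 10 genes of the 35730 gene names that have a probe on the array. They were the ligands Dll1, Dll3, Jag1 and Jag2, the receptors Notch1, Notch2 and Notch3, and the target genes Hes1, Hes5 and Hey1. Probes were taken by gene name or by RefSeq transcript, not by their values, and each gene had 1 probe.

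Notch signalling passes between touching cells. A ligand of the Delta or Jagged family on one cell binds a Notch receptor on its neighbour, the receptor is cut by proteases, and its intracellular domain enters the nucleus. There it joins the DNA-binding protein Rbpj and switches on genes of the Hes and Hey families, which are repressors of neuronal genes. In the developing brain, ligands on young neurons are known to signal to receptors on progenitors and astrocytes, and Notch activity is known to favour astrocyte formation.

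Co-cultures of neurons and astrocytes (CC) were compared with co-cultures that had received cold jet (CC-CJ) and with astrocytes grown alone that also received cold jet (AA-CJ). In cold jet, chilled buffer is squirted onto the culture, which loosens the neurons and leaves the astrocyte layer. The astrocytes came from cortex of newborn Wistar rats, and the neurons came from hippocampus of mouse embryos, so that mouse mRNA was read by probes designed for rat. Replicate RNA samples came from separate pools of animals according to the study's methods. The labels give 2 biological replicates per condition, so the 4 CC-CJ channels may hold fewer than 4 distinct RNA samples. On 4 arrays with 2 colours, CC-CJ was labelled with Cy3 each time. AA-CJ was labelled with Cy5 on 2 of the arrays, and CC was labelled with Cy5 on the others. No dye swap was made, so dye and condition cannot be told apart in either comparison with CC-CJ. CC and AA-CJ carried the same dye, and the comparison between them was made through CC-CJ.

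Between 50.1% and 62.6% of probes per channel were well above background, which is Agilent's mark for a spot clearly brighter than its surroundings. Cold jet lowered 8 of 12 neuron marker genes against CC, and in CC-CJ 4 of them still exceeded AA-CJ. Of 10 astrocyte markers, all passed the filter on dim probes. In such mixed samples, fewer cells of a type and less RNA per cell cannot be told apart.

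Promoter windows of the members come first, searched for the sequence through which Notch is known to act. Rbpj binds a short core, searched here as TGGGAA or its reverse complement TTCCCA, and a longer form, GTGGGAA or TTCCCAC, which contains the core. Windows ran from 250 bases before to 50 bases after the RefSeq start site of build GRCr8, and 9 of the 10 genes had one. Hey1 had no entry. Hes1, Hes5 and Dll1 are shown as the 3 genes with the longer form, with each core in capitals and in the direction of the gene.
Hes1, chr11:84212996-84213295 (minus strand): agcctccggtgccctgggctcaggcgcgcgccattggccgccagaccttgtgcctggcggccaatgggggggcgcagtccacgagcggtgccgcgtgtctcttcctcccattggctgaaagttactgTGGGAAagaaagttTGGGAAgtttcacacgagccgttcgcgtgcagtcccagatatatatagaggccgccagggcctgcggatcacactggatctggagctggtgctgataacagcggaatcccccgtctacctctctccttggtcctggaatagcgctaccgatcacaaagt
Hes5, chr5:170804327-170804626 (plus strand): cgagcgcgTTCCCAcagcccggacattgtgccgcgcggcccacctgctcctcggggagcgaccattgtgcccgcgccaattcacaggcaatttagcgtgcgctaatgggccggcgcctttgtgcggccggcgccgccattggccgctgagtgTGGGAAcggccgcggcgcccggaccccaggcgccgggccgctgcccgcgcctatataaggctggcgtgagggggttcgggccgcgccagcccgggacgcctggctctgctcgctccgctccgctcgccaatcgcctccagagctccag
Dll1, chr1:64993225-64993524 (minus strand): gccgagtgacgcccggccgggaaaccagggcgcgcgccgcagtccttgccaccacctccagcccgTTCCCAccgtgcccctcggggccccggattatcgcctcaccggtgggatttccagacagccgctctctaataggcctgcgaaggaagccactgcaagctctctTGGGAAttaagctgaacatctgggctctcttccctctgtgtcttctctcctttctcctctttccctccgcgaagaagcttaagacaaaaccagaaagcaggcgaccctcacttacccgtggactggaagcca

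The Hes1 window held 2 cores in the same orientation, with first bases at -123 and -109 from the start site. The Hes5 window held 2 cores in opposite orientation, at -242 and -98, both in the longer form. In Dll1, the cores lay at -185 and -82. Notch3 had 1 core, at 43 bases into the transcribed part, and the other genes with a window had 0. Across 33469 rat promoter windows, 25.7% held the core and 6.29% held the longer form, so the core alone was common. These matches describe letters only, and no binding was measured here.

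Each gene was read by 1 probe, at a position that the files give on build rn4. Ligand probes lay at chr1:54240756-54240911 (Dll1), chr1:83373670-83373846 (Dll3), chr3:125181316-125181375 (Jag1) and chr6:137909983-137910029 (Jag2), all on the minus strand. Receptor probes lay at chr3:4634122-4634181 (Notch1, minus), chr2:192986165-192986224 (Notch2, plus) and chr7:12688876-12688935 (Notch3, minus). Target probes lay at chr11:72605138-72605197 (Hes1, minus), chr5:171764386-171764445 (Hes5, plus) and chr2:95175952-95176011 (Hey1, plus). The probes of Dll1 and Dll3 spanned 156 and 177 bases of genome, more than the 60 of most others. Exon and UTR annotation of rn4 was not used here, and how well each probe pairs with the mouse mRNA was not tested.

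None of the 9 members that could be tested differed in any of the 3 comparisons at an adjusted p of 0.05 in limma. Across all 21365 genes tested, the shares called were 3.1% for CC-CJ versus AA-CJ, 2.36% for CC-CJ versus CC and 2.66% for CC versus AA-CJ. At an unadjusted p of 0.05, 0 members passed in CC-CJ versus AA-CJ, 2 in CC-CJ versus CC and 0 in CC versus AA-CJ. The corresponding shares of all genes were 22.6%, 16.9% and 17.8%. The median absolute log2 difference of the 9 members was 0.10, 0.04 and 0.08 in these comparisons, against 0.12, 0.11 and 0.15 over all genes. The smallest absolute differences that were called for any gene were 0.41, 0.43 and 0.59.

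How small a change the probes could show depended on their brightness. Jag1 spots were 15.6 to 46.6 times the local background and Notch3 spots 113 to 362 times, whereas those of the other 8 genes were 1.16 to 3.31 times. Adding an offset of 50 to all signals, which steadies dim spots, also shrinks their ratios. With an offset of 16, the median absolute difference over the 7 dim genes that were tested rose from 0.06 to 0.10, and with Agilent's own processed signals it was 0.28. For Jag1 and Notch3 the same medians were 0.09, 0.11 and 0.12. The 95% intervals given for the dim genes therefore hold on the scale with the offset and set no limit on the fold change of their mRNA. In the authors' processed table the order was the other way, with medians of 0.12 for the dim genes and 0.16 for Jag1 and Notch3. The fit without an intensity-dependent correction, in which each array is only centred on its median, called 8 of the 9 members in CC-CJ versus AA-CJ and 8 in CC-CJ versus CC. It also called 14262 and 14623 of the 21365 genes, and it called 0 members in CC versus AA-CJ. Its largest member value was that of the bright Notch3, at -1.14 for CC-CJ versus AA-CJ (adjusted p 0.000156 in limma). The values of the bright genes thus also depended on the processing.

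**Figure D1:**
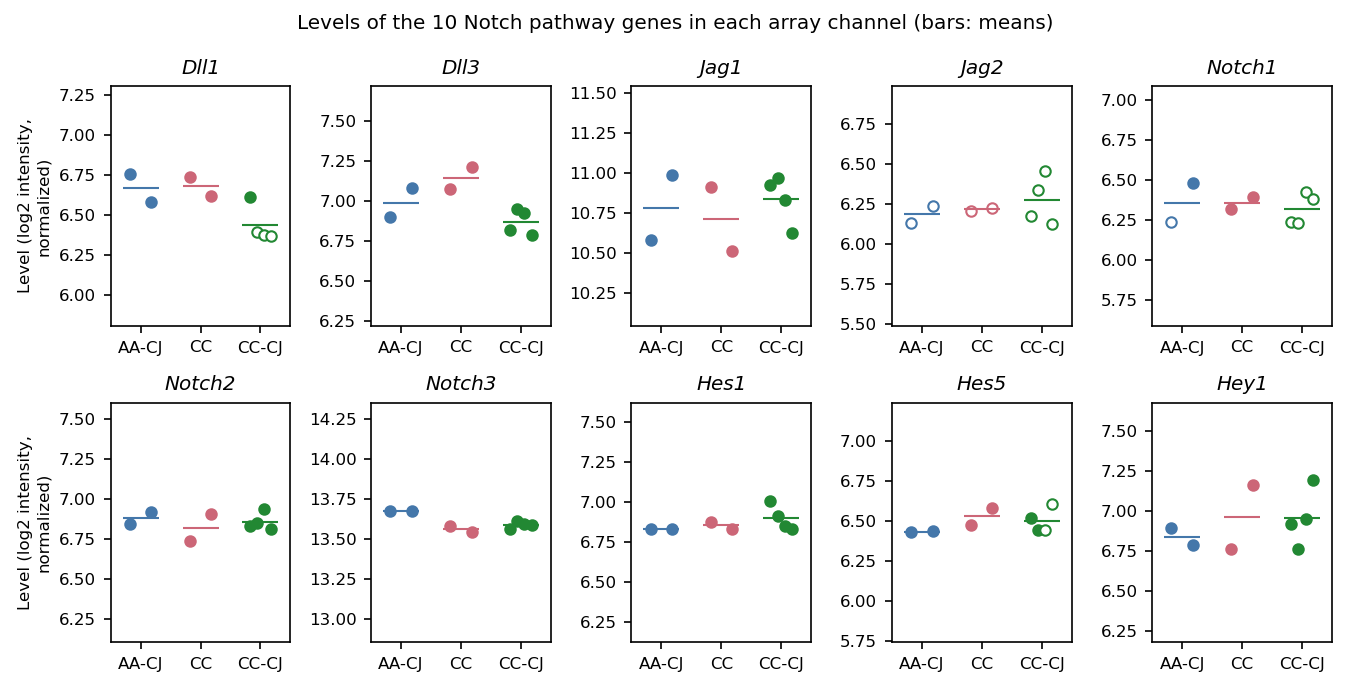
Normalized log2 intensity (y axis, each panel spanning the same range of 1.5 log2 units) of the 10 genes in the AA-CJ, CC and CC-CJ channels (x axis). Each point is 1 channel of 1 array, filled where the spot was well above background, and lines are group means. Jag2 is open in every sample, and Notch1 is open in all 4 CC-CJ channels. Levels are not comparable between panels.

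Dll1, a ligand of the Delta family made by newborn neurons, lay near background. Its log2 levels were 6.76 and 6.58 in AA-CJ, 6.74 and 6.62 in CC, and 6.61, 6.40, 6.38 and 6.37 in CC-CJ. The AA-CJ and CC samples overlapped, and 3 of the 4 CC-CJ channels were below all of them. The spot was well above background in both AA-CJ and both CC samples but on only 1 of 4 arrays in CC-CJ. Dll1 thus passed the filter on dim probes only through AA-CJ and CC, where it was higher. Its comparisons with CC-CJ are therefore not independent of that filter. The log2 difference of CC-CJ from CC was -0.30 ± 0.08 (SE, arrays -0.34 and -0.25), with a 95% interval of -0.49 to -0.10. The limma p was 0.00864 before adjustment and 0.143 after it, so the difference did not pass the test. Against AA-CJ the difference was -0.17 (arrays -0.14 and -0.20, adjusted p 0.267 in limma), and CC against AA-CJ gave 0.12 (interval -0.15 to 0.40, adjusted p 0.617). The CC-CJ versus CC difference was -0.53 with an offset of 16 (adjusted p 0.0808), -0.47 in the authors' processed table (0.0586) and -1.70 in Agilent's processed signals (0.14), and it missed the threshold in each. Since CC-CJ was in Cy3 and both compared samples in Cy5, dye and condition cannot be told apart in these values.

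Dll3, a divergent Delta-type protein that is known to act mainly inside the cell that makes it, was well above background in every sample. It had log2 levels of 6.90 and 7.08 in AA-CJ, 7.08 and 7.22 in CC, and 6.82, 6.95, 6.93 and 6.79 in CC-CJ. Both CC samples lay above all 4 CC-CJ channels, and AA-CJ overlapped CC-CJ. The log2 difference CC-CJ versus CC was -0.28 ± 0.10 (SE), with arrays at -0.12 and -0.43, an interval of -0.51 to -0.04, a p of 0.028 and an adjusted p of 0.239 in limma. CC-CJ versus AA-CJ gave -0.12 (adjusted p 0.527), and CC versus AA-CJ gave 0.16 (interval -0.18 to 0.49, adjusted p 0.602). With Agilent's processed signals the first of these was -0.80 (adjusted p 0.28). The neuron markers moved in the same comparison, and their part in the values of Dll1 and Dll3 was not tested.

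Jag1, a ligand of the Jagged family that astrocytes also make, was bright in every sample. Log2 levels of Jag1 were 10.58 and 10.98 in AA-CJ, 10.91 and 10.51 in CC, and 10.93, 10.97, 10.83 and 10.63 in CC-CJ. All 3 groups overlapped. The arrays of CC-CJ versus AA-CJ lay on opposite sides of 0, at 0.35 and -0.15, with a mean of 0.10 (interval -0.20 to 0.39, adjusted p 0.701 in limma). CC-CJ versus CC gave 0.08 (interval -0.21 to 0.38, adjusted p 0.772), and CC versus AA-CJ gave 0.01 (interval -0.41 to 0.43, adjusted p 0.982). Jag1 had the widest standard errors of the 9 members, 0.125 in the comparisons within arrays and 0.176 in CC versus AA-CJ. With an offset of 16 the 3 differences were 0.11, 0.12 and 0.00, and with the offset of 50 the intervals of all 3 comparisons lay within a 1.5-fold change in either direction.

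Jag2, the other Jagged ligand, was not well above background in any channel of any array, and its spots were 1.16 to 1.48 times the local background. It was left out by the filter on dim probes, and no fold is given.

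Notch1, a receptor of neural progenitors and neurons, also lay at the limit of detection. The log2 levels of Notch1 were 6.24 and 6.48 in AA-CJ, 6.32 and 6.39 in CC, and 6.24, 6.23, 6.42 and 6.38 in CC-CJ. The groups overlapped, and the spot was well above background in 1 of 2 AA-CJ samples, both CC samples and 0 of 4 CC-CJ channels. It passed the filter on dim probes through CC alone. The fitted log2 difference was -0.05 for CC-CJ versus CC (interval -0.24 to 0.14, adjusted p 0.796 in limma) and -0.03 for CC-CJ versus AA-CJ (interval -0.22 to 0.17, adjusted p 0.882), and no fold is drawn from them. The second was 0.082 with Agilent's processed signals and 0.037 in the authors' table. CC versus AA-CJ gave 0.02 (interval -0.25 to 0.30). With Agilent's processed signals, CC-CJ versus CC was -0.58 and CC versus AA-CJ was 0.66, neither of which passed the test.

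Notch2, a receptor known from glia and progenitors, was detected in every sample at 1.51 to 2.47 times the local background. Its log2 levels ran from 6.84 to 6.92 in AA-CJ, from 6.74 to 6.91 in CC and from 6.81 to 6.94 in CC-CJ. The groups overlapped almost fully. The log2 differences were 0.00 for CC-CJ versus AA-CJ, 0.01 for CC-CJ versus CC and -0.01 for CC versus AA-CJ, with adjusted p of 0.991, 0.965 and 0.982 in limma. The authors' processed table gave -0.10, 0.07 and -0.17, none of which passed the test.

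Notch3, a receptor best known from mural cells of vessels and also present in glia, was far above its own background in every sample. Its log2 levels were 13.68 and 13.68 in AA-CJ, 13.58 and 13.54 in CC, and 13.56, 13.61, 13.59 and 13.59 in CC-CJ. Both AA-CJ samples were above all others, and CC overlapped CC-CJ. The log2 difference CC-CJ versus AA-CJ was -0.10 (arrays -0.12 and -0.08, interval -0.29 to 0.09, adjusted p 0.5 in limma), and CC versus AA-CJ was -0.14 (interval -0.40 to 0.13, adjusted p 0.565). CC-CJ versus CC was 0.04 (interval -0.15 to 0.23, adjusted p 0.844). The authors' processed table gave -0.28 for CC-CJ versus AA-CJ and -0.26 for CC versus AA-CJ, with adjusted p of 0.183 and 0.393. Centring on the median alone gave -1.14 and -0.45 for these comparisons (adjusted p 0.000156 and 0.1 in limma). Of 7 mural cell markers, Notch3 included, 3 were tested and 0 were called. Of 8 endothelial markers, 2 passed the filter on dim probes, and 0 were called. Over all genes 2.36% to 3.1% were called, so counts of so few genes cannot show whether these cells differed. In each comparison 1 of the mural markers had an unadjusted p under 0.05 in limma, and their largest difference in CC versus AA-CJ was 0.57.

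**Figure D2:**
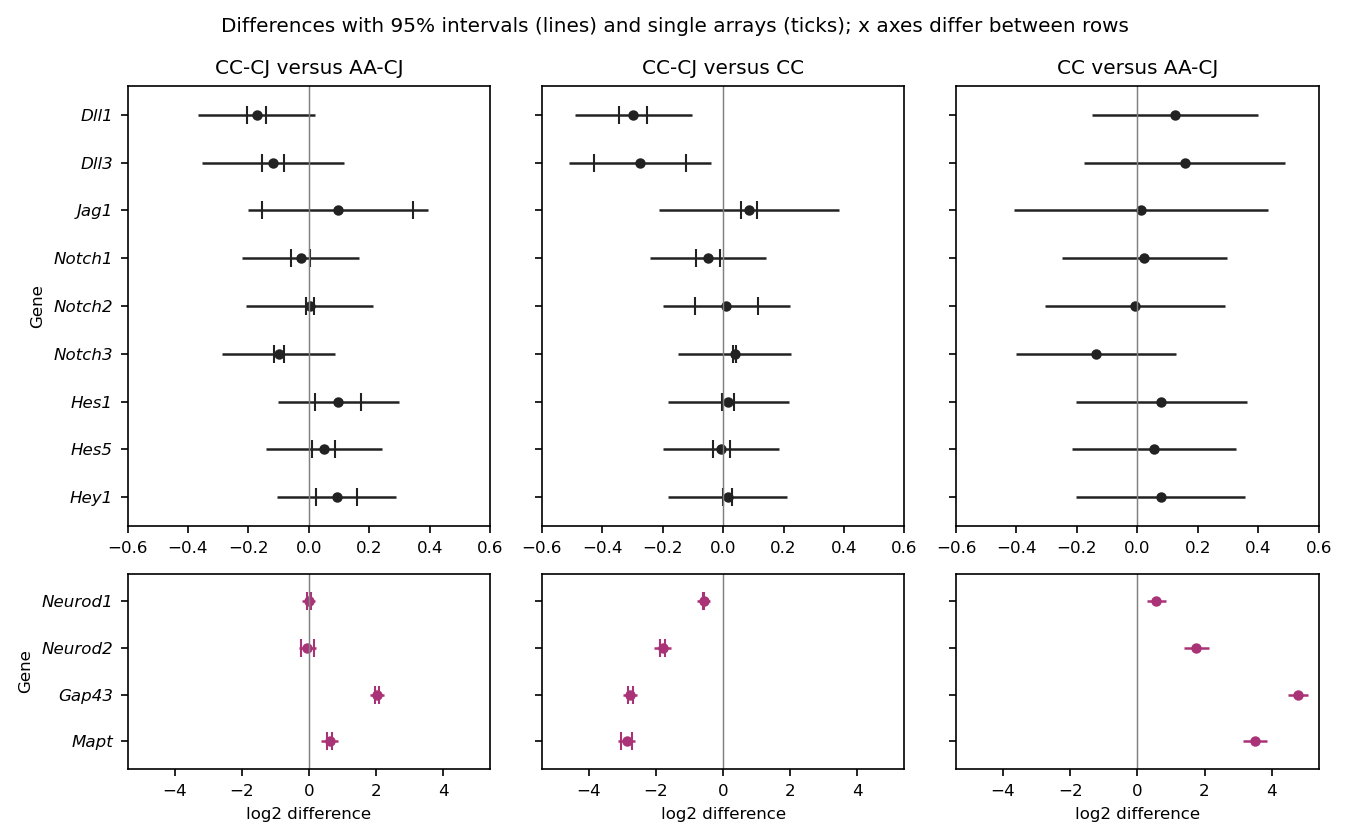
Log2 differences (x axis) of the 9 tested members (upper row) and of 4 neuronal genes (lower row, a wider axis) in the 3 comparisons. Points are limma estimates, lines are 95% intervals, and ticks are single arrays, which exist only for the 2 comparisons made within arrays. The members lie between -0.30 and 0.16, and Gap43 reaches 4.79 in CC versus AA-CJ.

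The target genes were those through which a change of receptor activity would be read. Hes1, a repressor switched on by Notch in progenitors and glia, was detected in every sample. Log2 levels of Hes1 were 6.83 and 6.83 in AA-CJ, 6.88 and 6.83 in CC, and 7.00, 6.91, 6.85 and 6.83 in CC-CJ. CC-CJ reached higher than the other groups but overlapped CC, and the lowest CC-CJ channel was level with AA-CJ. The log2 difference CC-CJ versus AA-CJ was 0.10 (arrays 0.17 and 0.02, interval -0.10 to 0.30, adjusted p 0.544 in limma). CC-CJ versus CC gave 0.02 and CC versus AA-CJ gave 0.08 (adjusted p 0.938 and 0.77).

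Hes5, the target most restricted to neural progenitors, lay near background. The Hes5 levels on the log2 scale were 6.43 and 6.43 in AA-CJ, 6.47 and 6.58 in CC, and 6.51, 6.44, 6.44 and 6.60 in CC-CJ. CC and CC-CJ overlapped, and both AA-CJ samples lay just below all others. The spot was well above background in 2 of 4 CC-CJ channels and in all others, so Hes5 passed the filter on dim probes only through AA-CJ and CC. The log2 differences were 0.05 for CC-CJ versus AA-CJ (arrays 0.09 and 0.01, interval -0.14 to 0.24), -0.01 for CC-CJ versus CC and 0.06 for CC versus AA-CJ, with adjusted p of 0.772, 0.975 and 0.837 in limma. Agilent's processed signals turned the first to -0.28 (adjusted p 0.503).

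Hey1, a related repressor of the Hey family, was detected in every sample. Hey1 had log2 levels of 6.89 and 6.79 in AA-CJ, 6.76 and 7.16 in CC, and 6.92, 6.76, 6.95 and 7.19 in CC-CJ. The groups overlapped. On the array where CC-CJ was highest, CC was also at its highest, and their difference there was 0.03. The log2 difference CC-CJ versus AA-CJ was 0.09 (arrays 0.02 and 0.16, interval -0.11 to 0.29, adjusted p 0.562 in limma). CC-CJ versus CC was 0.01, and CC versus AA-CJ was 0.08 (adjusted p 0.947 and 0.775).

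By role, the median log2 difference CC-CJ versus AA-CJ was -0.12 for the 3 tested ligands, -0.03 for the 3 receptors and 0.09 for the 3 targets, beside -0.02 over all genes. For CC-CJ versus CC the medians were -0.28, 0.01 and 0.01, beside -0.02 over all genes. For CC versus AA-CJ they were 0.12, -0.01 and 0.08, beside 0.00. For CC versus AA-CJ, the ligands Dll1, Dll3 and Jag1 were at 0.12, 0.16 and 0.01. The value of Dll1 came through CC-CJ, since its mean log2 levels were 6.68 in CC and 6.67 in AA-CJ. The astrocyte-side receptors and targets ranged from -0.14 to 0.08 in that comparison. None of these values passed the test, and the difference between the roles was not tested.

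**Figure D3:**
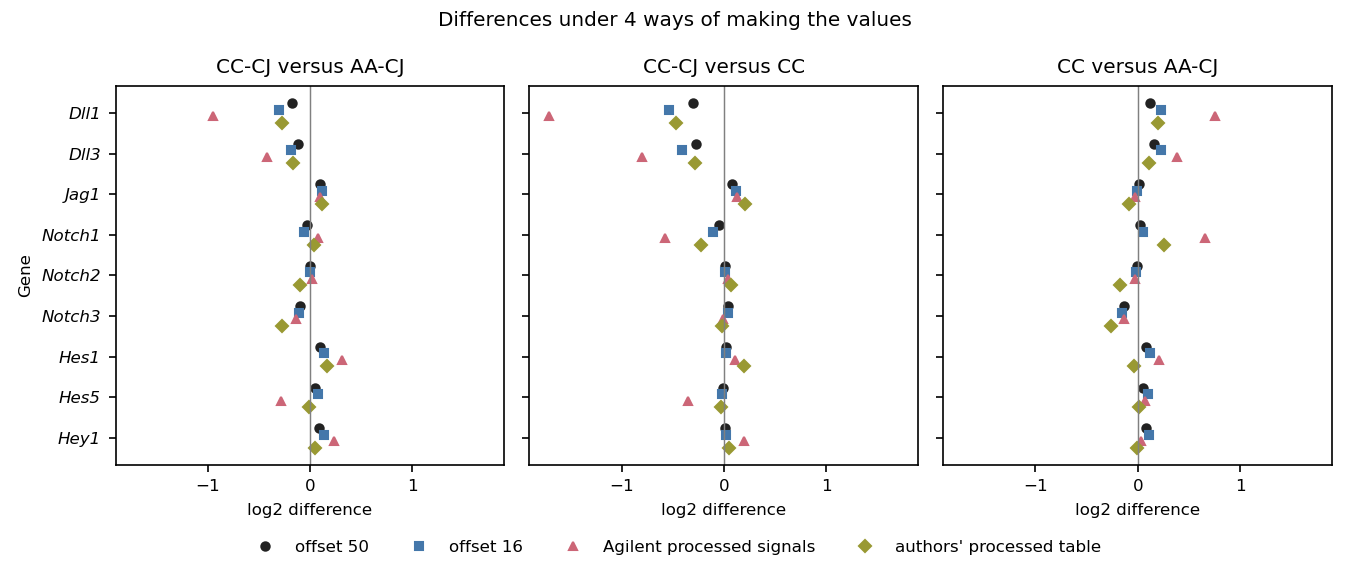
Log2 differences (x axis) of the 9 tested members (y axis) in the 3 comparisons, under 4 ways of making the values. Points of Jag1 and Notch3 stay within 0.28 of 0, while Dll1 in CC-CJ versus CC runs from -0.30 with an offset of 50 to -1.70 with Agilent's processed signals.

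Whether neuronal RNA of a member survived cold jet could not be measured. That share needs a gene whose level in CC is at least 1.5 times the level in AA-CJ. The ratio of the members ran from 0.924 to 1.11, and 0 of 9 reached the limit. Of the 12 neuron markers, 9 reached it, and on average 11.6% of their excess was left in CC-CJ (range -7.57% to 45.0%).

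No other gene of the pathway outside the proneural factors passed the test either. The lists held 51 further genes, which are other ligands and a receptor and genes of ligand endocytosis, receptor glycosylation and cleavage, the nuclear complex, turnover and the other Hes and Hey factors, of which 29 were tested. In limma 0 of 29 were called in each of the 3 comparisons, beside 3.1%, 2.36% and 2.66% of all genes. An unadjusted p under 0.05 was reached by 4, 2 and 2 of them, beside 22.6%, 16.9% and 17.8% of all genes. Their median log2 differences were 0.00, 0.01 and -0.10 for CC-CJ versus AA-CJ, CC-CJ versus CC and CC versus AA-CJ. All 9 genes of receptor cleavage, which include the gamma-secretase subunits, were tested, and their differences ran from -0.32 to 0.21 over the 3 comparisons. Hdac1, a histone deacetylase of corepressor complexes, came nearest to a call, at -0.47 for CC-CJ versus AA-CJ (arrays -0.61 and -0.33, adjusted p 0.0621). It passed the threshold in 5 of 17 alternative fits and was named after its value was seen.

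The calls lay among the proneural factors, the transcription factors of the neuronal lineage that Hes proteins repress, of which 4 of 7 were tested. Neurod2, which acts in maturing neurons, fell from CC to CC-CJ, with a log2 difference CC-CJ versus CC of -1.80 ± 0.11 (SE, arrays -1.87 and -1.74, adjusted p 0.000417 in limma). It was higher in CC than in AA-CJ by 1.76 (adjusted p 0.00207), and CC-CJ versus AA-CJ gave -0.04 (interval -0.30 to 0.21, adjusted p 0.852). That interval holds on the scale with the offset. Detection of the proneural factors in single samples is not given here, so equal mRNA in CC-CJ and AA-CJ cannot be read from it. Neurod1, an earlier factor of the same family, also fell, at -0.58 for CC-CJ versus CC (arrays -0.59 and -0.56, adjusted p 0.0171). Its value for CC versus AA-CJ was 0.57 (adjusted p 0.0618). Leaving out either CC array ended the Neurod1 call, at -0.56 (adjusted p 0.0771) and -0.59 (adjusted p 0.155). So did median centring, at -0.041 (adjusted p 0.794), and the replicate block (adjusted p 0.0637), while Agilent's processed signals gave -3.37 (adjusted p 0.0115).

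**Figure D4:**
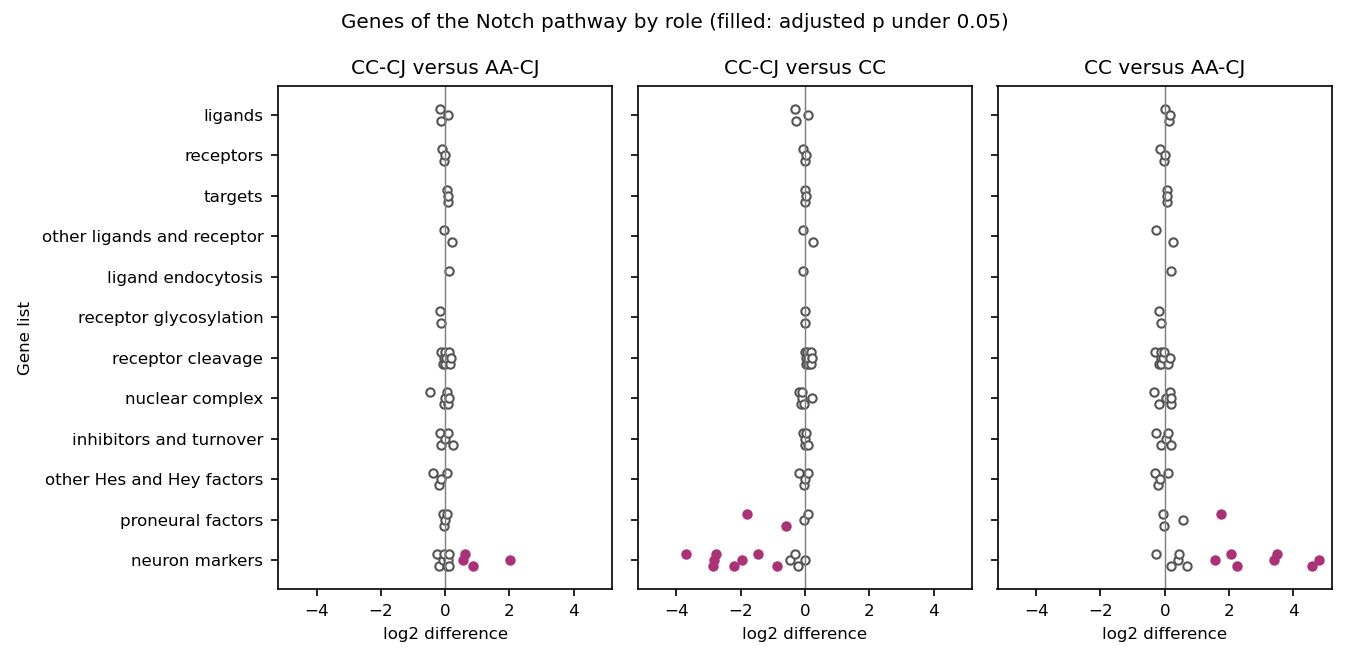
Log2 differences (x axis) of single genes in 12 lists (y axis), in 3 comparisons. Filled points passed an adjusted p of 0.05. In the pathway lists the filled points are Neurod2 and Neurod1, and the other filled points are neuron markers.

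Neuronal RNA on the same arrays was read by 12 neuron markers, which differed widely. In CC versus AA-CJ their log2 differences ran from -0.27 to 4.79, with a median of 1.81, and 7 of 12 were called higher. The genes named next were the largest of those called in that comparison. Gap43, a growth cone protein, gave 4.79 for CC versus AA-CJ, -2.76 for CC-CJ versus CC and 2.03 for CC-CJ versus AA-CJ (adjusted p 7.81e-05, 0.000106 and 0.000339 in limma). The microtubule proteins Mapt and Dcx stood at 3.50 and 4.57 in CC versus AA-CJ, and at 0.63 and 0.87 in CC-CJ versus AA-CJ (adjusted p 0.0367 and 0.0276). Without the first replicate of CC-CJ versus AA-CJ, the number of neuron markers called in that comparison fell from 4 to 1.

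Markers of other cell types also passed the test. Of the 10 astrocyte markers, 1 was called in CC-CJ versus AA-CJ, where the median of the list was -0.02. It was Aqp4, the water channel of astrocyte endfeet, at 0.51 (adjusted p 0.031), which passed in 10 of 17 alternative fits and missed the threshold without either AA-CJ array (adjusted p 0.15 and 0.0677). Fabp7, a lipid-binding protein of radial glia, was higher by 0.42 in that comparison (adjusted p 0.0472), and centring on the median alone turned it to -0.85. The call was lost with an offset of 16 (adjusted p 0.109), with Agilent's processed signals (0.145) and without either AA-CJ array (0.188 and 0.122). In CC-CJ versus CC, Sox10 of the oligodendrocyte lineage was lower by a log2 difference of -1.12, the fibroblast genes Dcn and Col1a2 gave -0.77 and -0.59, and Aif1 of microglia gave -0.53 (adjusted p 0.0335, 0.00554, 0.0311 and 0.0436). These were 1 of 7 oligodendrocyte lineage, 2 of 4 fibroblast and 1 of 3 microglia markers tested. Sox10, Dcn, Col1a2 and Aif1 passed in 12 of 16, 15 of 17, 13 of 17 and 11 of 16 alternative fits. The Sox10 arrays were at -0.68 and -1.56. CC versus AA-CJ, which share a dye, gave 0.66 for Dcn and 0.78 for Aif1 (adjusted p 0.042 and 0.0377 in limma). Those calls passed in 5 of 16 and 9 of 15 fits. Sox10 and Col1a2 were not called there (0.0899 and 0.34). The part of these cell types in the levels of the Notch genes was not tested.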

How the data were processed

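Agilent whole-genome rat arrays with 2 colours were hybridized with CC-CJ RNA in Cy3 and AA-CJ or CC RNA in Cy5. The authors deposited, per the file headers, the spot intensity on a linear scale from Feature Extraction 9.5.1.1, with positions on rn4. They also deposited a table of processed log2 ratios, made per the study's methods by OLIN and OSLIN. Its column medians were -0.0247 to 0.00847, its sign was turned after comparison with the scanner values (r 0.9 to 0.952), and its exact scaling remains unknown.

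Mean signals were corrected by normexp (offset 50) and loess (span 0.3) in limma 3.58.1 under R 4.3.3. Control spots and spots with outlier marks (121 to 179 per array) were left out. A probe was kept if at least 1 of the RNA groups had it well above background in all its samples, which left 24865 of 41012 probes. Genes were means of kept probes. Levels are per channel after loess and Aquantile scaling. All 4 arrays, on 1 slide, entered 1 fit with lmFit and eBayes (2 residual and 4.71 prior degrees of freedom), and p-values were adjusted by Benjamini-Hochberg over 21365 genes. The number of arrays limits the precision. The fit took the arrays as independent, and its standard errors, intervals and p-values rest on that. The steps were tested on simulated data. The RefSeq table named 10835 of the 16321 probes that carry a RefSeq accession, among them 7 of the 10 member probes, and elsewhere the name in the files was used.

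Named genes are the 10 members, pathway genes that passed the threshold (at most 6 per comparison), and at most 3 passing genes of each marker list. Hdac1 was named outside this rule, after its value was seen. Members and lists were chosen with earlier results of these data known. Promoter sequences are from RefSeq on GRCr8. Alternatives were other offsets, normalizations, filters, sources and sets of arrays.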

Additional observations from a re-analysis of the deposited data

Results flagged for a closer look

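Among the 4 CC-CJ levels of Dll1, 1 stood apart. The one on the first array with AA-CJ was at 6.61 on the log2 scale, and the other 3 were between 6.37 and 6.40. Its gap to the nearest was 0.891 of the group's range, above Dixon's critical value for a group of 4. It was also the only CC-CJ spot of Dll1 that was well above background, and the AA-CJ sample on the same array was the higher of its pair, at 6.76. Such a gap is found by chance in about 1 of 20 groups, and 9 groups were examined. Whether the 4 channels hold 4 distinct RNA samples is not given in the sources used here, and the critical value assumes that they do. Its cause was not tested.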

How the results depend on the processing

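Over 16 alternatives other than median centring, 0 of 414 values of the members passed the threshold (lowest adjusted p 0.0586), and 32 changed sign without a call. Median centring called 8 members in each comparison with CC-CJ. It turned, for CC-CJ versus AA-CJ, Dll1 to 0.31, Jag1 to -0.61, Notch1 to 0.66, Neurod2 to 0.58 and Fabp7 to -0.85. For CC-CJ versus CC it turned Dll1 to 0.37, Jag1 to -0.46, Notch1 to 0.83, Notch3 to -0.69, Hes5 to 0.67 and Aif1 to 0.042. The median of all genes moved to -0.14 for CC versus AA-CJ. Of the 29 other pathway genes it called 15 and 18 in those comparisons. The cause was not tested.

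Counts of all genes moved more. For CC-CJ versus AA-CJ, 662 genes became 336 with an offset of 16, 98 with Agilent's signals, 14262 with median centring, 1114 with local regression, 1121 with its arrays alone, and 122 to 1121 when 1 array was left out (122 without the first replicate of that comparison). For CC-CJ versus CC, 504 became 234 with Agilent's signals, 14623 with median centring, 290 with probes detected in both channels, and 204 to 688 when 1 array was left out (204 without its second replicate). For CC versus AA-CJ, 568 became 248, 952 and 348 under those settings, and 352 to 656 when 1 array was left out (352 without that same array). With 1 array left in a comparison, it was assumed to vary like the others. CC versus AA-CJ could not be fitted with its own arrays alone. No alternative was run for the share left after cold jet, since no member reached the limit, with an offset of 16 either.

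Whether same-numbered arrays share RNA is not given in the sources used here (correlation of their deviations -0.112). With the replicate block, 170, 306 and 294 genes were called, and with the crossed pairing, chosen after seeing the data, 1492, 851 and 828. Neither called a member. Dim spots limit 8 of the 10 members, and Jag2 gave no value.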
